A study of Mus musculus with 12 samples.

Results

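The sites described here are 775 cytosines of nuclear genes that were called as unconverted in both total mRNA libraries labelled HF and in none of the other 10 libraries of the series. They were selected on their measured levels and read counts, out of 6210873 cytosines of annotated nuclear genes listed in at least 1 of 12 RNA bisulfite sequencing (RNA BS-seq) libraries. A call needed a coverage of at least 20 reads, at least 6 unconverted reads, and a level of at least 10%, where the level is the unconverted reads divided by the unconverted plus converted reads. Members also had to be listed with a coverage of at least 20 in at least 1 of the MF libraries. The values that chose the members were the calls in the libraries labelled HF, the lack of a call in the other 10, and the listing in MF, so their levels in HF, and any difference between HF and MF at them, are given as a description with no test.

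All groups were adult neural stem cells (NSCs) from the subventricular zone of the lateral ventricles of male wild-type C57BL/6 mice aged 6 to 8 weeks, cultured with epidermal growth factor and basic fibroblast growth factor. LF cells received 1.5 μM, MF cells 10 μM and HF cells 80 μM folic acid for 4 days, with the medium renewed on day 2. Each condition gave 2 libraries of total poly(A) RNA (LF, MF, HF) and 2 libraries of polysome poly(A) RNA (pLF, pMF, pHF). The study calls the replicates biological. The labels do not say whether they were separate cultures or animals. Fisher's exact test pools reads over replicates, so its p-values measure no spread between samples. Those of limma and of the permutation tests measure the spread between these samples alone.

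Bisulfite deaminates unmodified cytosine in RNA so that sequencing reports T, whereas 5-methylcytosine (m5C) stays and is read as C. A C in a read can also be a cytosine that the reaction did not reach, so a level is a share of unconverted reads and not by itself a share of methylated molecules. In mRNA of mammals, NSUN2 is known to methylate cytosines followed by a guanine-rich stretch, and NSUN6 is known for cytosines that begin the sequence CUCCA. Folate feeds the methionine cycle, which makes the methyl donor of these enzymes.

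The libraries labelled HF, on whose calls the choice of members rests, stood apart from the rest of the series. They held 5200 and 4090 called sites in nuclear genes, against 566 to 611 in the LF and MF libraries and 807 to 3624 in the polysome libraries. Their coverage per gene correlated with that of the LF and MF libraries at r = 0.844 to 0.866 across genes, while LF and MF libraries correlated with each other at 0.967 to 0.973, and the libraries labelled HF with each other at 0.953. Coverage per gene, here and in the marker values below, comes from listed cytosines, each with at least 1 unconverted read. It thus depends on which cytosines were listed and is not a measure of expression. At the positions of the site list issued with the article, coverage in HF replicates 1 and 2 fell below the listed coverage at 40 of 82 and 42 of 76 sites, and in the other 10 libraries at 0. It equalled the listed coverage at 1 and 0 of these sites in HF replicates 1 and 2. Each of the other 10 libraries had equal coverage at 50 to 122 of its 78 to 172 sites. So the label HF is used here only as the name these libraries carry. Summed NSC markers were at 9853 to 10971 CPM (coverage scaled to the library's total) in the libraries labelled HF and at 10661 to 12043 in LF and MF, ranges that overlapped. Among them Nes and Vim had 1825 to 1991 and 5092 to 5796 CPM in HF, against 2318 to 2869 and 5360 to 6095 in LF and MF. Sox2 was not listed, which does not show its absence, since the study reports that all cells of its cultures stained for Nestin and Sox2. Fabp7 was at 160 and 177 CPM in HF against 723 to 763 in LF and MF, and the summed markers of the oligodendrocyte lineage were at 1115 to 1166 CPM against 2635 to 2799. Summed fibroblast markers were at 4183 to 4528 CPM against 2225 to 2697, and microglia markers at 23 to 27.1 against 6.73 to 15.3. Neuron markers were at 128 to 136 CPM against 173 to 200, and astrocyte markers at 248 to 310 against 377 to 445. These sums rest on few genes, and Col1a2 made up most of the fibroblast sum. Under 1 CPM in all libraries were 5 of 8 oligodendrocyte lineage, 2 of 6 fibroblast and 5 of 7 microglia markers. The same held for 6 of 10 neuron and 3 of 6 astrocyte markers. Markers of endothelial cells, muscle, germ cells and pluripotent cells summed to under 1 CPM in every total library. The part of these differences in the results was not tested.

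The members shared a feature that the rule did not use: a run of guanines directly 5′ of the cytosine. The sequences below are the members with the highest coverage and those with the highest levels, each given 5′ to 3′ on the strand of the transcript in GRCm38 (mm10), 21 bases long, with the member and any run of guanines before it in capitals. They show the shared stretch and how it varies in length.

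Rpl4, chr9:64177003-64177023, coding exon: gcgcaGGGGGCcctgcatcat
Ckb, chr12:111670197-111670217, coding exon: agaaGGGGGGCaacatgaagg
Mt3, chr8:94153963-94153983, coding exon: gaagaGGGGGCcaaggcagag
Eef1a1, chr9:78479328-78479348, coding exon: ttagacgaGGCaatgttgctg
Scd2, chr19:44305347-44305367, 3′UTR: ttcgaggggaCagtcttcctg
Atp13a3, chr16:30343671-30343691, coding exon: atgaaGGGGGCccctgaggtt
Glmp, chr3:88326142-88326162, coding exon: tccgaGGGGGCacagcctcca
Ttc3, chr16:94459951-94459971, coding exon: ctcaaGGGGGCtagccaggtg
Armc1, chr3:19133974-19133994, 3′UTR: caacaGGGGGCcagctttcca
Epm2aip1, chr9:111273053-111273073, coding exon: tcagtGGGGGCaacaacagtt
Sf3b2, chr19:5274476-5274496, coding exon: gccgtGGGGGCagcaagaaat
Ncoa3, chr2:166070476-166070496, 3′UTR: gacgaGGGGGCacagtctgcc
Hspd1, chr1:55079113-55079133, coding exon: taggaGGGGGCtgcgctctgc
Fdft1, chr14:63151214-63151234, coding exon: tcggaaGGGGCaagcagtcac

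All 10 members with the highest mean level (among those covered by 50 or more reads in each library labelled HF) followed 4 or 5 guanines; the member of Tubb6, on chromosome 18, is the one of the 10 whose sequence is not shown. Of the 775 members, 586 (75.6%, Wilson 95% interval 72.5 to 78.5%) followed at least 3 guanines, GGGC, and 495 (63.9%) followed at least 4, GGGGC. The background for these shares is the 578475 eligible cytosines, which met the coverage rule in HF and MF without having to be called. A cytosine is listed only with at least 1 unconverted read, so each of them had such a read in both libraries labelled HF and in an MF library, and cytosines with none are outside this background and outside the non-members below. Among them 2.96% followed GGG and 0.885% followed GGGG. Intervals here cover the counting of sites alone, and sites of 1 library are not replicates of a condition.

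Position by position, a guanine stood directly before 88.8% of members, and at 2, 3, 4 and 5 bases before it in 87.9%, 84.1%, 80.3% and 59.0%. The same shares among eligible cytosines lay between 27.7% and 29.7%. At 6 bases before the cytosine the members had adenine in 49.9% of cases, against 24.5% of eligible cytosines, and directly after it in 44.6%, against 31.9%. At 2 bases after the cytosine the guanine share was 31.0% in members and 31.1% in eligible cytosines. The most frequent stretch was AGGGGGC, held by 158 members and by 416 eligible cytosines, so that 38.0% of the eligible cytosines in it were members. GGGGGGC came next, with 56 members of 224 eligible cytosines.

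**Figure D1:**
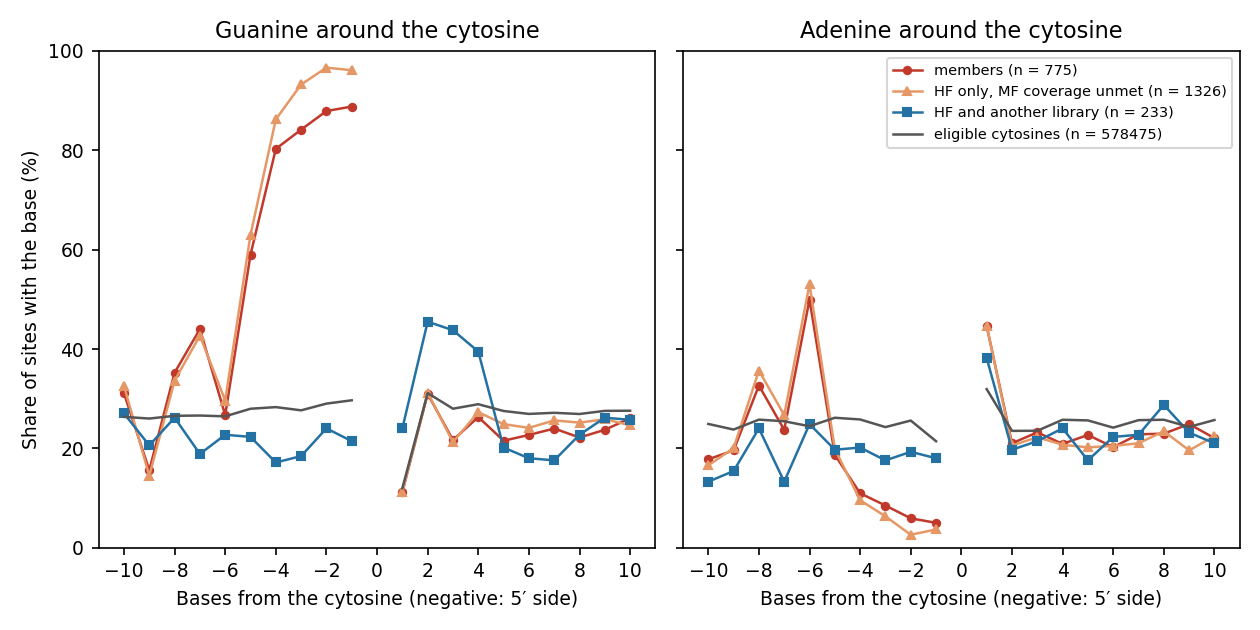
Share of sites (%) with guanine (left) or adenine (right) at each of 10 bases on either side of the cytosine, for members, for sites called in both libraries labelled HF but not meeting the MF coverage rule, for sites called in both and elsewhere, and for all eligible cytosines. Guanine reaches 88.8% of members directly before the cytosine, against 29.7% of eligible cytosines, while sites also called elsewhere have guanine in 45.5%, 43.8% and 39.5% of cases at 2, 3 and 4 bases after it, against 31.1%, 28.0% and 28.9%.

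The contexts written by the known mRNA methyltransferases were not frequent among members. GGG at 2 to 4 bases after the cytosine (CNGGG), the NSUN2-like context, was present at 7 members (0.903%), against 2.16% of eligible cytosines. CTCCA, the NSUN6-like context, was present at 1 member (0.129%), against 0.770%. The comparison set of 233 sites called in both libraries labelled HF and also elsewhere differed in both directions: 41 of them (17.6%) had CNGGG, and 4 (1.72%) had GGG directly before the cytosine. The 1326 further sites that were called in both libraries labelled HF and nowhere else, but were not listed with enough coverage in MF, resembled the members, with GGG directly before the cytosine in 1150 (86.7%). The members thus had unconverted reads in MF by the rule. A site absent from the MF lists may have had no unconverted read there or too little coverage, and which of these held for the 1326 was not tested.

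Membership rose with the length of the run. Of eligible cytosines with no guanine before them, 87 of 406791 (0.0214%) were members, and after 1, 2 and 3 guanines 39 of 114470 (0.0341%), 63 of 40098 (0.157%) and 91 of 11997 (0.759%). After 4 guanines 224 of 3873 (5.78%) were members, after 5 guanines 215 of 1022 (21%, Wilson 95% interval 18.6 to 23.6%), and after 6 or more 56 of 224 (25%, 19.8 to 31.1%). The last 2 intervals overlapped. Median levels of the members themselves in HF replicates 1 and 2 were 18.8% and 13.7% with no guanine, 16.3% and 14.3% after 1, 17.0% and 17.5% after 2, 17.6% and 16.9% after 3, 19.1% and 18.9% after 4, 22.5% and 20.9% after 5, and 24.4% and 22.8% after 6 or more. They increased from 3 guanines on in both replicates, and below 3 guanines they followed no single order.

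The eligible cytosines that did not become members showed the same gradient in the libraries labelled HF. Their pooled level was 0.132% and 0.136% in HF replicates 1 and 2 with no guanine before the cytosine, 0.398% and 0.390% after 3 guanines, 1.23% and 1.18% after 4, 2.2% and 1.99% after 5, and 3.76% and 3.38% after 6 or more. In the other 10 libraries it lay between 0.0982% and 0.149% with no guanine, between 0.118% and 0.169% after 4, between 0.261% and 0.581% after 5, and between 0.232% and 0.429% after 6 or more. Both libraries labelled HF were above all other libraries from 1 guanine on, by little at 1 (0.136% and 0.138%, against at most 0.133%), and they lay among them with no guanine. Over all 4624 non-members after at least 4 guanines, the pooled level of those listed was 1.38% ± 0.0634 (SD, n = 2) in HF and 0.182% ± 0.00878 in MF. It was 0.163% ± 0.00295 in LF, 0.210% ± 0.0109 in pMF and 0.190% ± 0.0393 in pHF. The pHF replicates were at 0.218% and 0.163%, the first among the other polysome libraries (0.203% to 0.218%) and the second below them and within the LF range (0.161% to 0.165%). LF and MF gave p = 0.333 in an exact two-sided permutation test, the smallest that 2 libraries against 2 allow, and pHF and pMF gave an exact p = 1. Nothing is read from the LF and MF comparison, since eligibility required a listing in MF and not in LF. Eligibility also required a listing in both libraries labelled HF. The gaps between HF and the other libraries, here and by position below, are therefore a description. Nothing is read from the small gap at 1 guanine. The groups also pooled different cytosines, 2047 and 2208 in LF and 2921 and 3214 in MF.

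**Figure D2:**
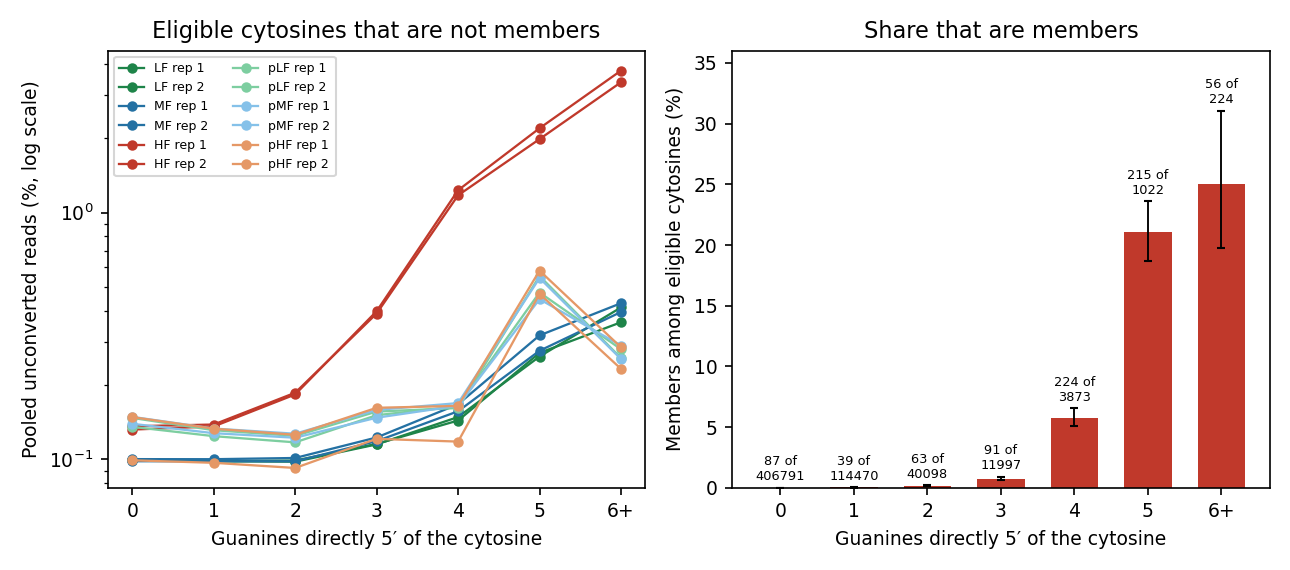
Left, pooled share of unconverted reads (%, log axis) at eligible cytosines that are not members, by the number of guanines directly 5′ and by library. Right, share of eligible cytosines that are members (%), with Wilson 95% intervals and counts above the bars. The libraries labelled HF climb from 0.132% and 0.136% with no guanine to 3.76% and 3.38% after 6 or more, and the other 10 libraries stay at or below 0.581%.

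In these libraries the level differed with the position of the cytosine relative to the run. Among eligible cytosines directly 3′ of a run of at least 4 guanines, the pooled level with members included was 2.28% and 2.12% in HF replicates 1 and 2, and 0.158% to 0.215% in the other 10 libraries. At 2 bases 3′ of the run it was 0.470% and 0.465%, and 23 of 2352 cytosines were members. At 3 bases it was 0.281% and 0.253%, with 7 members of 1587, and at 5 and 6 bases no cytosine was a member. On the 5′ side the base next to the run had 0.337% and 0.333%, with 3 members of 1924, and at 3 to 6 bases 5′ the libraries labelled HF lay between 0.0947% and 0.109%, with 2 members in all 4 positions together. The base before the run also went with the level: after exactly 5 guanines, 158 of 416 cytosines (38.0%) were members where an adenine preceded the run, 19 of 190 (10.0%) where a cytosine did and 38 of 416 (9.13%) where a thymine did.

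**Figure D3:**
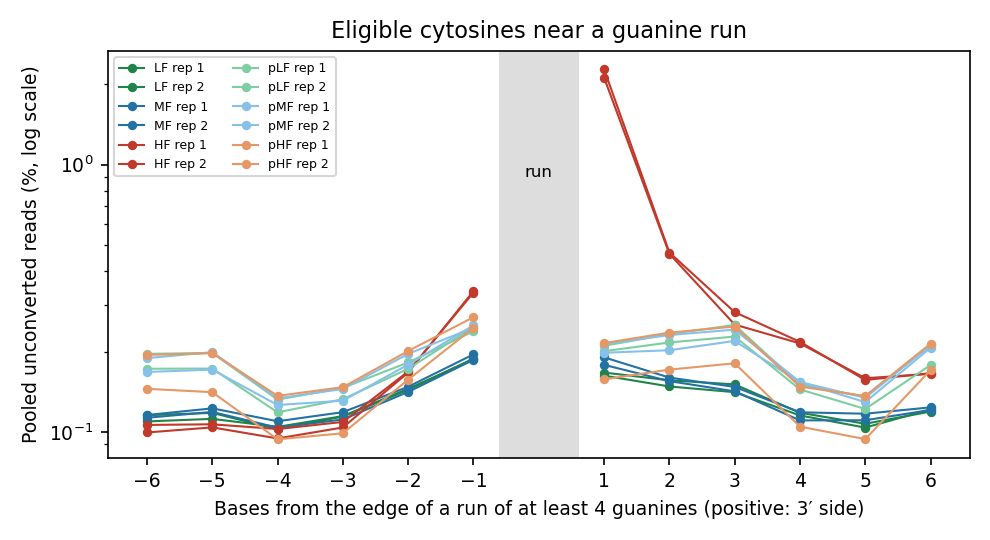
Pooled share of unconverted reads (%, log axis) at eligible cytosines, members included, at 1 to 6 bases on the 5′ (negative) or 3′ (positive) side of a run of at least 4 guanines, by library. Only the first base 3′ of the run stands well above the rest, at 2.28% and 2.12% in the libraries labelled HF.

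Positions where the genome has T gave a further signal, in rows that the rule leaves out. The lists hold such positions as variant rows, here each with at least 5 reads of C. HF replicates 1 and 2 held 26918 and 20861 of them, against 3801 to 16897 in the other libraries. Of these T positions, 8541 (31.7%) and 7147 (34.3%) directly followed at least 3 guanines, against 46 to 219 (0.835 to 1.54%) in each of the other 10 libraries. A genomic T has no cytosine to convert. The median share of C reads at these positions in the libraries labelled HF was 2.02% and 1.95% after 3 guanines, 4.83% and 5.02% after 4, 12.3% and 11.7% after 5, and 17.3% and 18.6% after 6 or more. These medians cover positions selected for reads of C and not every genomic T after such a run. The part of this signal in the members' levels was not tested.

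In the libraries labelled HF, the level of the 775 members ranged from 10% to 90.2% in replicate 1, with a median of 19.7%, and from 10% to 82.9% in replicate 2, with a median of 18.2%. Median coverage at the members was 148 and 128 reads, and the median of unconverted reads was 31 and 24. The median gap between the replicates was 3.93 percentage points, and 469 of 775 members were higher in replicate 1. Across members the replicate levels correlated at r = 0.832, a description over sites of the same pair of libraries. In both replicates 124 members (16.0%) reached 30%, and 21 (2.71%) reached 50%. At the lower edge, the Ago2 member on chromosome 15 was at 11.6% and 10%, and the first site outside, in Hnrnpu on chromosome 1, was at 10.3% and 9.98%.

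Elsewhere the members were listed in 187 to 542 of 775 cases per library. Where listed with a coverage of at least 20, the members of LF replicates 1 and 2 had medians of 0.498% and 0.464%, and those of MF 0.578% and 0.455%. In polysome mRNA the medians were 0.474% and 0.377% for pLF, 0.325% and 0.399% for pMF, and 0.428% and 0.134% for pHF. Between 29.5% and 58.7% of these entries rested on 1 unconverted read. Any covered members without such a read are absent from the list, which would raise these medians. Members with too little coverage are left out too, so the medians over all 775 are not known. At 731 members (94.3%) no other library reached 5%, and 5 members reached 10% in another library without the reads for a call.

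**Figure D4:**
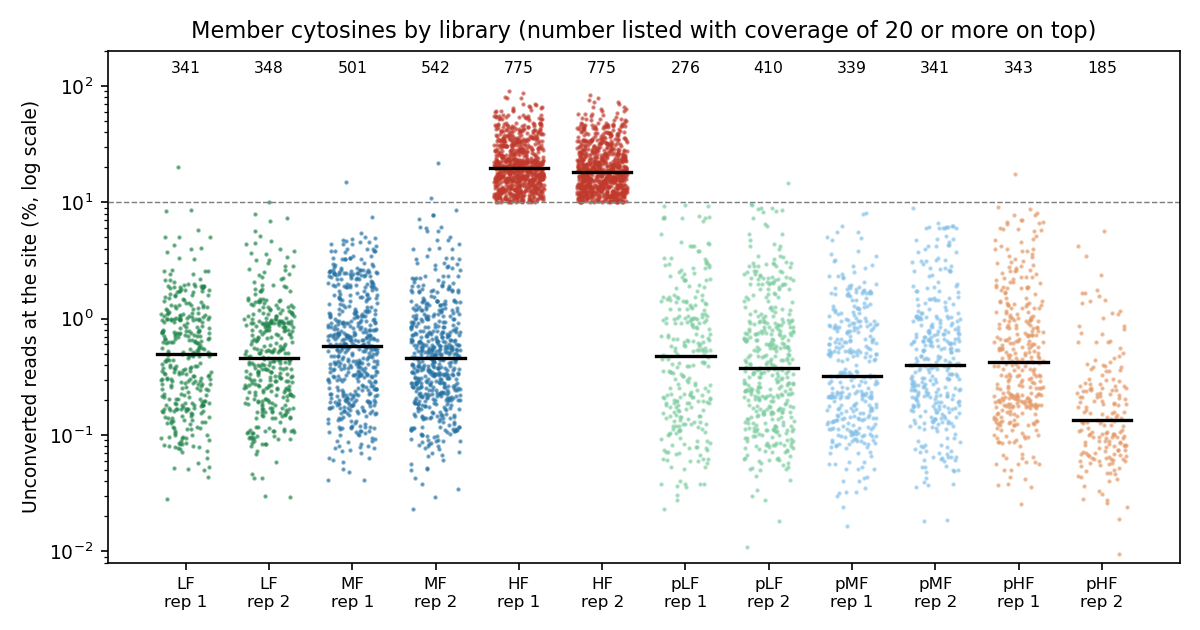
Level (%, log axis) of each member in each library where it was listed with a coverage of at least 20, with the median as a bar, the number of such members on top and the 10% call limit dashed. The medians are 19.7% and 18.2% in the libraries labelled HF and 0.134% to 0.578% in the other 10.

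The deepest members give the values of single sites, whose gap between HF and the rest the rule required. In Rpl4, which encodes a protein of the large ribosomal subunit, the cytosine at position 64177013 of chromosome 9 had 944 unconverted reads at a coverage of 5042 (18.7%) in HF replicate 1 and 984 at 4235 (23.2%) in HF replicate 2. The LF replicates had 13 of 8108 and 11 of 9366, and the MF replicates 6 of 7666 and 8 of 8141. Polysome mRNA gave 18 of 4002 and 13 of 8521 for pLF, 6 of 5340 and 10 of 5107 for pMF, and 7 of 5786 and 5 of 9947 for pHF. The highest of these 10 values was 0.450%. Ckb, the brain creatine kinase, had 28.3% and 24.4% at coverages of 7862 and 6542 in HF, and between 0.0649% and 0.171% in the other libraries. Mt3, a metallothionein of the brain, had 31.1% and 28.0% in HF and between 0.0445% and 0.114% elsewhere. Scd2, a stearoyl-CoA desaturase, had 13.2% and 13.5% in HF and between 0.0804% and 0.236% elsewhere, at a cytosine that followed GGGGA. Eef1a1, the elongation factor that brings tRNA to the ribosome, was the deepest member, with 11.9% and 10.1% at coverages of 9617 and 9415 in HF and 0.133% to 0.378% elsewhere.

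The highest level belonged to Atp13a3, a transport ATPase, with 110 unconverted reads at a coverage of 122 (90.2%) and 87 at 105 (82.9%) in HF, and 1 read at a coverage of 52 in LF replicate 1 and of 35 in MF replicate 2; no other library listed it. Glmp, a lysosomal membrane protein, followed with 86.4% and 75.4%, then Tubb6, a beta tubulin, with 80.0% and 65.4%, and Ttc3, an E3 ubiquitin ligase, with 69.1% and 72.2%. Armc1 reached 60.5% and 78.7%, Epm2aip1 62.0% and 69.4%, the splicing factor gene Sf3b2 66.6% and 61.3%, the nuclear receptor coactivator gene Ncoa3 69.6% and 58.0%, and Fdft1, which encodes squalene synthase, 61.1% and 56.5%. Hspd1, the mitochondrial chaperonin, had 611 of 946 (64.6%) and 397 of 635 (62.6%) in HF and between 0.0324% and 0.602% in the 9 other libraries that listed it. These 10 levels varied by up to 18.2 percentage points between the replicates, and the highest value of any of them in another library was 4% (Glmp).

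**Figure D5:**
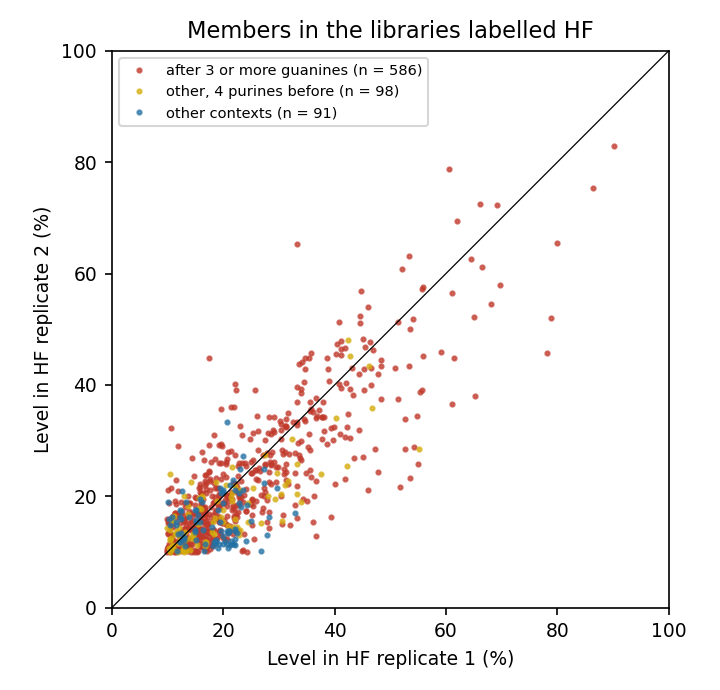
Level (%) of each member in HF replicate 1 against replicate 2, by sequence context; the line marks equal levels. Members of all 3 contexts begin at the 10% limit, and those above 60% in both replicates all followed at least 3 guanines.

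The 189 members without a run of 3 guanines fell into separate kinds. Of these, 98 had 4 purines directly before the cytosine, and GGAGGC, with an adenine inside the run, was held by 41 members (5.29%, against 0.510% of eligible cytosines). The hexamer with the adenine directly before the cytosine, GGGGAC, was held by 22 members (2.84%, against 0.221%). Taken with the runs, 661 members (85.3%) had 4 purines directly before the cytosine, against 12.1% of eligible cytosines. The other 91 members had no such context, and 62 of them (68.1%) lay within 25 bases of another site called in a library labelled HF. That held for 10 of the 586 members after a run (1.71%). Around the members after a run, non-member cytosines within 25 bases had a pooled level of 0.138% and 0.143% in HF and 0.101% to 0.165% in the other 10 libraries, so the neighbours lay within the range of the other libraries.

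Clustered members made up 7 chains of at least 3 members with gaps of at most 25 bases, holding 57 members in all, none of them after a run. The largest lay in the 3′UTR of Cfl1, which encodes the actin-severing protein cofilin, at chr19:5493774-5493824, and held 21 members, all of the listed cytosines in these 51 bases. The sequences of a pair of them show the context, without a guanine run.

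Cfl1, chr19:5493783-5493803: ttttttttaaCgacaccccta
Cfl1, chr19:5493796-5493816: cacccctactCcgtatccctc

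The 21 Cfl1 members had between 9 and 14 unconverted reads at coverages of 39 to 65 in HF replicate 1, and between 6 and 9 at coverages of 37 to 54 in HF replicate 2. Levels ran from 18% to 33.3% and from 11.3% to 20.5%, and in LF and MF from 0.444% to 3.29%. The chain in the coding sequence of Pfn1, which encodes the actin-binding protein profilin, held 12 members in 44 bases, with levels of 13.3% to 23.5% and 15.4% to 21.2% in HF; another 3 lay in its 3′UTR. In Tuba1a, an alpha tubulin gene overlapped by Gm49450 so that the reads cannot be assigned to either, 8 members lay within 18 bases. They were at 11.8% to 21.4% and 10.1% to 12.1% in HF, the second close to the call limit. Several polysome libraries lay just below that limit. The pLF replicates were at 7.27% to 9.43% and 8.28% to 9.62%, and pHF replicate 1 at 6.67% to 9.09%. The pMF replicates were at 1.19% to 1.99% and 5.97% to 6.25%, and LF and MF at 0.0839% to 1.30%. No Tuba1a member was listed in pHF replicate 2. Msn, which encodes the membrane-to-actin linker moesin, had 7 members within 52 bases of its 3′UTR, and another alone after 3 guanines with 20.8% and 19.1%. Chains of 3 members lay in Fabp7 and in Gnas, which are named, after their values were seen, to complete the list. The deposited lists still hold reads with several unconverted cytosines, which the study removes in a later step.

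Dag1, which encodes dystroglycan, had 4 members, 3 of them after a run, spread over 2240 bases of its last exon. Its member with the highest coverage was at 20.2% and 15.7% in HF and 0.0362% to 0.570% in the 8 other libraries that listed it. Most genes had 1 member: 599 of 661 gene entries (90.6%) had 1, 51 had 2 and 11 had 3 or more. Coverage of genes with a member differed between HF and MF by a median log2 ratio of -0.02, close to -0.06 for all other genes.

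By GENCODE annotation, 473 members (61.0%) lay in coding sequence, 277 (35.7%) in 3′UTRs, 5 in 5′UTRs, 15 in noncoding exons and 5 in introns. Eligible cytosines had 73.8% in coding sequence and 21.8% in 3′UTRs, and non-members after at least 3 guanines 74.2% and 21.7%, so the larger 3′UTR share of members was not shared by all cytosines after a run. Of the coding members, 197 (41.6%) lay at codon position 3, 173 (36.6%) at position 2 and 103 (21.8%) at position 1, against 38.4%, 30.0% and 31.6% of eligible coding cytosines. Coding non-members after at least 3 guanines had 47.2%, 25.7% and 27.1%, so the share of members at position 3 was above that of all eligible cytosines and below that of the cytosines after a run. The shares of members include the 189 members without a run of 3 guanines. Members after a run were not placed alone beside non-members after a run. Soft-masked repeats held 26 members (3.35%), against 3.93% of eligible cytosines. Variant reads reached 1% of the coverage at 11 members in a library labelled HF.

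Members were spread over many gene groups, and the share of genes with a member in each group stands beside 7.31% for all 8878 genes with 1 name and an eligible cytosine. That share is larger for genes with many covered cytosines. Per 10000 eligible cytosines, all these genes had 13.3 members. Glial and myelin genes (17.5, from 3 members), cell cycle and DNA replication genes (15.4, from 13), ribosomal protein genes (14.7, from 11) and the ubiquitin ligase list (13.6, from 12) lay above that, and the other lists below it. These counts are small, and whether any list differs from all genes was not tested. They leave out entries with several gene names, which held 21 members, 8 of them in Tuba1a. A member of Ndufb9, in an entry shared with Gm49356, is among those left out. The place of the tubulin and actin list below 13.3 thus holds for entries with 1 name only. The ubiquitin ligase list had a share of genes with a member of 7.10%, below 7.31%. Translation factor genes had 9.94 and genes of collagens, laminins and integrins 9.61, although their shares of genes with a member, 13.8% and 18.2%, were above 7.31%. Among genes of the translation machinery, 10 of 77 cytosolic ribosomal protein genes had a member, as did 9 of 65 translation factor genes and 2 of 20 aminoacyl-tRNA synthetase genes. Rps18, of the small ribosomal subunit, had 39.6% and 30.1% in HF and 0.0323% to 0.769% elsewhere, and Eif6, which keeps ribosomal subunits apart, had 24.9% and 24.2% after 7 guanines. The Rpl3 member was at 10.6% and 12.2%, and the coding member of Eif4g2 at 14.1% and 10.5%. Eprs and Tars, which charge tRNAs with amino acids, had 12.8% and 14.2%, and 21.4% and 14.2%.

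Of the cell cycle and DNA replication genes, 10 of 59 had a member. Ccnd1, the cyclin D1 that drives entry into S phase, had 34.9% and 24.3% at its coding member, and its kinase partner Cdk4 had 14.0% and 15.3%. Cdk16 had 27.9% and 27.8%. Splicing factors had members in 11 of 77 genes, among them Hnrnpdl with 18.4% and 16.0% and U2af1 with 17.7% and 21.1%. Of the proteolysis genes, 5 of 37 for proteasome subunits and 11 of 155 on the ubiquitin ligase list had a member. That list counts Ube2j1, which encodes a ubiquitin-conjugating enzyme and not a ligase. Psma6 had 19.2% and 20.5%, Psmb5 11.9% and 11.1%, Nedd4 18.2% and 15.4%, Fbxw8 15.9% and 20.9%, and Ube2j1 21.7% and 19.5%. The proteasome member in the 3′UTR of Psma4, at 24.2% and 18.4% in HF, had no guanine before it, stood at the start of CGGGG, and was at 2.49% to 4.52% in the polysome libraries, 0.826% and 3.61% in LF and 1.01% and 1.19% in MF.

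In the other groups, 6 of 81 respiratory chain genes had a member, with Cox7a2 at 21.9% and 17.7%, Atp5g2 at 20.7% and 14.9% and Ndufv1 at 20.5% and 23.5%. The list of heat shock protein and chaperone genes had members in 8 of 69, counting Hspg2, which encodes a matrix proteoglycan and not a chaperone. On it were P4hb, the protein disulfide isomerase, at 10.7% and 12.2%, Cct5, a subunit of the cytosolic chaperonin, at 16.9% and 15.5%, and Hspa9 at 19.1% and 21.5%. Genes of collagens, laminins and integrins had members in 6 of 33, with Col1a2 at 10.2% and 11.5%, Col5a2 at 14.2% and 15.5% and Col4a5 at 11.7% and 13.9%; Col1a2 coverage was itself higher in HF, at 4038 and 4380 CPM against 2200 to 2678 in LF and MF. RNA helicases had members in 6 of 45 genes, with Ddx6 at 33.5% and 29.6%, Ddx21 at 21.3% and 14.8% and Ddx42 at 26.7% and 20.3%. Chromatin regulators had members in 7 of 77, with Chd2 at 10.3% and 15.2%, Setdb1 at 14.9% and 19.9% and Hdac2 at 11.3% and 13.2%.

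Smaller groups were tubulins and actins with 3 of 14 genes, not counting the Tuba1a members, and glial and myelin genes with 2 of 7. Tuba1c had 10.5% and 10.6% in HF and Actb 20.0% and 20.7%. The Actb site was at 8.49% and 5.63% in LF and at 4.95% and 4.76% in MF. It was at 0.492% and 0.131% in pMF and at 1.36% and 0.242% in pHF. Glul, the glutamine synthetase, had 45.4% and 39.1% at its coding member and 14.4% and 14.3% in its 3′UTR, and Olig2 22.2% and 27.5%. Histones had 1 of 16 genes, H3f3a, at 22.8% and 13.1%, and synapse and neuronal membrane genes 2 of 38, Cacna1h at 21.3% and 20.9% and Cacna1a, in an intron, at 16.2% and 19.0% (and at 5 of 25 reads in LF replicate 1). Among 22 folate and methionine cycle genes 1 had a member, Mthfd1, which interconverts forms of folate, with 26 unconverted reads at a coverage of 160 (16.2%) and 12 at 109 (11%). None of 11 genes of RNA m5C writers and readers had one.

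Where a gene of these groups, or one named for its level or coverage, had 2 members, the values given are those of the deeper one, except for Glul, where both are given. Second members in 3′UTRs were at 43.2% and 43.0% in Ccnd1, 46.8% and 35.8% in Scd2, 31.1% and 22.1% in Eif4g2, and 22.2% and 15.9% in Chd2. Those of P4hb and Hspa9, also in 3′UTRs, were at 19.6% and 16.3%, and at 19.4% and 13.8%. Coding second members were at 28.2% and 34.3% in Ttc3, 22.2% and 12.3% in Hspd1, 17.6% and 22.9% in Nedd4, 20.6% and 16.6% in Ndufv1, and 16.6% and 11.2% in Hnrnpdl. Among these genes the levels of the 2 members lay farthest apart in Hspd1, where the other site was at 64.6% and 62.6%.

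Comparisons without the libraries labelled HF were made over all sites, and their values at the members are given as a description. The rule also touched these libraries, since members had to be uncalled in all of them and listed in MF, while the other sites had no such limit. The members' counts and directions are therefore not independent of the rule, and nothing is read from their difference from all sites. Unconverted and converted reads were pooled over replicates and compared by Fisher's exact test, with Benjamini-Hochberg adjustment over all cytosines with a coverage of at least 20 in the 4 libraries. Between LF and MF, 0 of the 138 members tested passed, against 29 of 335657 sites (0.00864%); 5 members and 14998 sites had an unadjusted p under 0.05, and limma called 0 sites, with 8 members and 17293 sites at an unadjusted p under 0.05. Between pHF and pMF, 0 of 80 members passed, against 3583 of 168032 sites (2.13%), with 6 members and 21819 sites at an unadjusted p under 0.05, and limma called 0 sites, with 1 member and 6901 sites at an unadjusted p under 0.05. Without pHF replicate 2, which held the fewest listed sites, 85 of 301374 sites passed, and without pHF replicate 1, 9426 of 212803, 5 of them members. Members in a test had at least 1 unconverted read in all 4 libraries, so these are the members with traces there and not a sample of all 775.

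Between polysome and total mRNA at the medium dose (pMF against MF), 28 of 139 members passed (20.1%), against 17722 of 212737 sites (8.33%). Of the members, 12 were higher in pMF (8.63%, against 7.98% of all sites) and 16 lower (11.5%, against 0.354%). Chains held 57 of the 139 members and 17 of the 28, in Cfl1 and Tuba1a, 8 higher and 9 lower, and those of a chain may rest on the same reads. Of the 58 members after at least 3 guanines, 6 passed, against 188 of 3538 sites in that context. limma on the log2 odds called 38 of 139 members, 26 of them among the 28, and 32086 of 212737 sites. Leaving out 1 library left 5 to 14 of 173 to 186 members and 8949 to 11418 of 278308 to 331978 sites. The lowest member count, 5 of 186, came without MF replicate 2, where 10334 of 278308 sites passed.

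The 5 members with the smallest p in that comparison were in Tmsb4x, Actb, Myh9, Fgfr2 and Eef1a1. Tmsb4x, which encodes the actin-binding thymosin beta 4, had 2 of 6342 and 4 of 4227 unconverted reads in pMF and 11 of 419 and 16 of 558 in MF (Fisher's exact test, adjusted p = 1.42e-20, and limma adjusted p = 0.000904). Actb, a cytoplasmic actin, had 0.492% and 0.131% in pMF and 4.95% and 4.76% in MF (Fisher's exact test, adjusted p = 1.27e-05). Myh9, a nonmuscle myosin heavy chain, had 0.0350% and 0.0188% against 0.0630% and 0.477% (Fisher's exact test, adjusted p = 0.00156), and Fgfr2, a fibroblast growth factor receptor, 0.181% and 0.177% against 4.00% and 0.990% (Fisher's exact test, adjusted p = 0.00536). Eef1a1 was higher in pMF, with 0.226% and 0.366% against 0.180% and 0.190% (Fisher's exact test, adjusted p = 0.00580), and did not pass in limma (adjusted p = 0.522). The pMF and MF values did not overlap at any of these 5 members, which were picked by their p.

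In the contrast that chose the members, HF against MF, 265 of the 268 members listed in all 4 libraries passed, against 31157 of 313582 sites (9.94%). Nothing is read from this count, since the rule fixed it.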

How the data were processed

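The authors used fastp for trimming, meRanGh for unique alignment (mm10) and meRanCall for cytosines, at a base quality of at least 30 and a coverage of at least 10, with meRanAnnotate for gene names. The submitters' notes name R 4.1.1. The deposited counts are the coverage, unconverted reads and variant reads per cytosine, not normalized between libraries, and the deposited level is a fraction that the authors made from these counts. Lists start at 1 unconverted read and precede the authors' filter on reads with several unconverted cytosines, their signal/noise filter and their structure filter.

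Polysome RNA came from pooled fractions with more than 3 ribosomes. Samples were grouped by their labels. The members, gene lists and tests were chosen with earlier results of these data known. Sites with a variant state, on chromosomes MT and Y or outside genes were left out. Sequences and features came from GRCm38.p6 and GENCODE vM21, and the listed 21 bases matched at 775 of 775 members. Median coverage of listed cytosines was 340 to 1002 reads per library, and at a coverage of 20 intervals are wide. Gene coverage left out members, and correlations used genes with a mean over 5 CPM.

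Fisher's exact test and the Cochran-Mantel-Haenszel test were run in Python 3.11.15 (scipy 1.17.1, numba 0.67.0) and limma 3.58.1 in R 4.3.3 on log2 odds with a pseudocount of 0.5. Only Fisher's exact test was also run on simulated data, which held no spread between replicates. Pooled reads carry no error between replicates. The 10 highest members, the 5 deepest, the 5 genes with most members, up to 3 members per gene list, the 5 smallest p of a comparison without HF, and the sites nearest the level limit are named. Alternatives were other minimums of coverage, reads and level, other tests and pseudocounts, the replicate block, and leaving out libraries.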

Additional observations from a re-analysis of the deposited data

Results flagged for a closer look

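Rows outside the members' measurement held a signal above the other libraries. Of the listed positions with a genomic T and at least 5 reads of C, 31.7% in HF replicate 1 and 34.3% in HF replicate 2 directly followed at least 3 guanines, against at most 1.54% in each of the other 10 libraries. Outside annotated genes, cytosines after at least 4 guanines gave 25 called sites of 236 in HF replicate 1 and 16 of 160 in HF replicate 2, against 0 to 2 of 24 to 66 in each other library, among them 2 of 29 in pHF replicate 2 and 2 of 53 in pLF replicate 2. Over all contexts outside genes the order was the reverse, with 330 of 19101 and 370 of 14871 called in HF replicates 1 and 2. LF and MF had 762 to 1262 of 19608 to 21953, and polysome libraries 630 to 1935 of 7180 to 14794. How these signals relate to the members was not tested.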

How the results depend on the processing

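The count of 775 members was 272 with a level of at least 20% and 268 with coverage in both MF libraries. It was 792 and 624 at minimum coverages of 10 and 50, 959 and 620 with 3 and 10 unconverted reads, and 699 without members near another called site. Leaving out 1 library gave 503 to 1688 members, from 503 without MF replicate 2 to 1688 without HF replicate 2 and 1264 without HF replicate 1. Between 53.5% and 86.0% of the sites followed at least 3 guanines under these settings.

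Shares with GGG, GGGG and 4 purines before the cytosine were 82.4%, 70.1% and 92.7% without members near another called site, 81.3%, 69.3% and 90.4% at a coverage of at least 50 in both libraries labelled HF, and, chosen after seeing the data, 81.6%, 68.9% and 91.8% without chains. At a minimum coverage of 50 the median level fell to 0.438% in LF replicate 2 and 0.395% in pLF replicate 1. With coverage in both MF libraries, a setting chosen after seeing the data, non-members after at least 4 guanines had 1.16% in HF. Of eligible cytosines after at least 4 guanines 9.67% were members, 10.0% without HF replicate 1 and 11.1% without HF replicate 2.

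For LF against MF, all sites past the threshold numbered 0 in limma at pseudocounts of 0.5 and 1 and with the replicate block, and 26 to 48 leaving out 1 library, most without LF replicate 2. For pHF against pMF they numbered 1818 with the Cochran-Mantel-Haenszel test (replicate block), 0 in limma at both pseudocounts and with the replicate block, and 85 to 9426 leaving out 1 library, where 0 to 5 members passed. For pMF against MF all sites numbered 32086 in limma, 49564 at a pseudocount of 1, 42150 with the replicate block and 8949 to 11418 leaving out 1 library. Members numbered 49 at a pseudocount of 1, 46 with the replicate block and 5 to 14 leaving out 1 library. For HF against MF all sites numbered 59266 at a pseudocount of 1, 51807 with the replicate block and 16500 to 23743 leaving out 1 library, with 256 to 519 members. The correlation of replicate differences between groups lay between -0.0420 and 0.00792. At sites with few unconverted reads such differences are largely counting noise. The correlation therefore cannot show whether replicate numbers paired the samples, which the labels do not say. The cause of these changes was not tested.

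Depth limits what the lists show: a member without an unconverted read in a library is absent there, and at a coverage of 20 a single read is worth 5 percentage points.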
